A study of Mus musculus with 8 samples.

Results

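The cystatins described here are 8 listed mouse genes for protease inhibitors, chosen by name but with earlier results of these data known. Cst9 and Cst12 are known from Sertoli cells and Cst8 and Cst13 from germ cells, while Cst3 and Cstb are widely expressed. Cst6 (cystatin E/M) is known from skin, and Csta1 is of the stefin A group. Of the 8 genes, 6 were found among the 17127 genes of the table and all 6 passed the filter on low values, while Cst6 and Csta1 were not analysed here. RNA-seq was carried out on adult testes of 4-month-old males, with 1 library per testis sample. The controls were wild type (genotype WT), 4 libraries, and the Iqch mutants were Iqch-/-, of which 3 libraries (mutants 1, 2 and 4) were analysed; mutant 3 is not analysed here. Mutants were homozygous for frameshift deletions made by CRISPR-Cas9 in B6CBAF1 zygotes. The study made 2 edited lines and names 1 of them for its phenotyping and its plot of RNA-seq coverage over Iqch, while the labels do not say from which line a library came. The RNA is of whole testis, so that every cell type of the organ contributes. Nothing in the labels ties the libraries to litters or days, so the p-values measure only the spread between these libraries.

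Cystatins bind in the active site cleft of papain-like cysteine proteases, mainly the cathepsins of the lysosome and of the extracellular space. Type 1 cystatins, also called stefins (Cstb, Csta1), lack a signal peptide and act inside the cell, whereas type 2 cystatins (the Cst genes with numbers) are secreted. In the male reproductive tract a subgroup related to Cst8, or CRES (cystatin-related epididymal spermatogenic), is known for lacking residues that cystatins use to bind these proteases, and Cst9 (testatin) is known from the embryonic male gonad. The cell types given here are background, since libraries of whole testis cannot assign a transcript to a cell.

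Of the 6 genes, 5 lie in a single cluster on chromosome 2 of GRCm39, and Cstb lies on chromosome 10. In the order of the plus strand, Cst12 (ENSMUSG00000027443) runs from 148631281 to 148635816, Cst8 (ENSMUSG00000027442) from 148640539 to 148647519, Cst13 (ENSMUSG00000036924) from 148648772 to 148672332 and Cst9 (ENSMUSG00000027445) from 148677039 to 148680659. Cst3 (ENSMUSG00000027447) is on the minus strand from 148713635 to 148717887. Cstb (ENSMUSG00000005054) is on the plus strand of chromosome 10, from 78261499 to 78263991. None of the 6 overlaps another annotated gene. The 250 bases before the canonical start are shown for 4 of them: the Sertoli pair, Cst8, which lies between them, and Cstb, whose gene is elsewhere. CpG dinucleotides are in capitals, and each line reads 5′ to 3′ on the strand of the gene. The windows are chr2:148631042-148631291 for Cst12, chr2:148676789-148677038 for Cst9, chr2:148640455-148640704 for Cst8 and chr10:78261249-78261498 for Cstb.

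Cst12: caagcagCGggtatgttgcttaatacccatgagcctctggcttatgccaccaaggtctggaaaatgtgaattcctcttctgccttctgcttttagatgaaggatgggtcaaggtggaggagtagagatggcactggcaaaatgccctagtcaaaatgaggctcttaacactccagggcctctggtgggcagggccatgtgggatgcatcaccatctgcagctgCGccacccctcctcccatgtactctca
Cst9: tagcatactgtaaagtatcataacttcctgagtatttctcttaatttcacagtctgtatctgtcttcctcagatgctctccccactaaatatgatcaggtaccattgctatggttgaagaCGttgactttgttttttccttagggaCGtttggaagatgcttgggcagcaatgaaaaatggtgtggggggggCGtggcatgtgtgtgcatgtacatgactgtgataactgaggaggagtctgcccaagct
Cst8: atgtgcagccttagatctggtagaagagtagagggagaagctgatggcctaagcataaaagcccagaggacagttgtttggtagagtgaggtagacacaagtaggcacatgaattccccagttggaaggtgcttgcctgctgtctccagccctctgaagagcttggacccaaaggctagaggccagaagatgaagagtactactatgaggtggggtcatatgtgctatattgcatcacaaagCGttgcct
Cstb: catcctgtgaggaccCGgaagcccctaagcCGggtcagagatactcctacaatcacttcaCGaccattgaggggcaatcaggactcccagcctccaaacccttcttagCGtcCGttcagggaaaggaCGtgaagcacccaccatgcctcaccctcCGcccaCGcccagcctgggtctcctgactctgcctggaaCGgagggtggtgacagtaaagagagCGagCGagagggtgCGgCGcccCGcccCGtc

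The cluster genes had few CpG in these windows and Cstb had many. Cst12 held 2, Cst9 3, Cst8 1, Cst3 1 and Cst13 0, whereas Cstb held 15 at a GC content of 62.4%. Over 17043 windows of the same length, the median was 10 CpG and the median GC content 54.8%, and 20.2% of windows held at most 3 CpG while 34.5% held 15 or more. Matches were searched on both strands for TATAAA (in 8.71% of all windows), CCAAT (34.8%), GGGCGG (41.7%), AGATAA (8.14%), AACAAT (8.06%) and TGACG (20.9%). Among the 6 genes only Cst13, with TATAAA on the opposite strand beginning at -190 from the start, and Cstb, with GGGCGG on the opposite strand at -96 and -10, had a match. A match here is a description of the letters and not a site.

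The reads behind a library numbered 32859673 to 37551057 in wild type and 32064384 to 34806129 in mutants, if the smallest step between values is 1 read, which the files do not state, so that 1 read is 0.0266 to 0.0312 CPM (the reads of a gene scaled to a fixed total of reads per library). On that reading a member had about 329 to 10087 reads in a library. No stretch of 100 bases of the members' canonical transcripts occurred in the transcripts of another gene. Iqch itself had a mean of 208 ± 11.3 CPM in wild type (SD, n = 4) and of 67.3 ± 2.25 in mutants (n = 3), a log2 fold change of -1.63 (SE 0.05), which goes with the labels. Markers of Sertoli and germ cells were both present. All 15 Sertoli markers tested were called higher in mutants (12 with the size factors described below; median log2 fold change 0.83), and those with the highest mean CPM were Clu, a secreted chaperone (1816 CPM in mutants, log2 fold change 1.09), Ctsl (673 CPM, 1.08) and Aard (237 CPM, 0.83). All 8 elongating spermatid markers were called lower (median -0.61), and Prm2, Prm1 and Tnp2, which package sperm DNA, were at -0.60, -0.66 and -0.58. Round spermatid markers were called lower in 5 of 9 (8 with size factors), with a median of -0.20 and a range of -0.34 to -0.06. Of these markers, Tssk2, Tssk1 and Acrv1 were at -0.34, -0.25 and -0.20. Beside these counts, 36.3% of all tested genes were called higher and 14.2% lower. CPM give a gene's share of the reads of a library, not its amount per cell or per testis. The paper reports smaller mutant testes, and in older mice fewer testicular cells and a lower proportion of haploid cells. In libraries of whole testis, more or fewer cells of a type and more or less RNA per cell cannot be told apart. This holds for rises and for falls. Log2 fold changes in this report compare mutant with wild type on log2(CPM + 0.1), and a gene was called when limma's FDR (Benjamini-Hochberg over all tested genes) was below 0.01.

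Of the 6 members, 5 were called, 4 higher in mutants (Cst9, Cst12, Cst3, Cstb) and 1 lower (Cst8), and 5 had values that did not overlap between genotypes. The same test called 50.4% of all 17126 tested genes, 36.3% higher and 14.2% lower, and groups did not overlap in 62.3%, so calls are frequent across the whole testis. The median log2 fold change was 0.85 over the members and 0.12 over all tested genes. With median-of-ratios size factors the median of all genes went to -0.01 (a shift of 0.121 in the deposited values), and all 6 members were called, 4 higher and 2 lower, the additional one being Cst13.

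**Figure D1:**
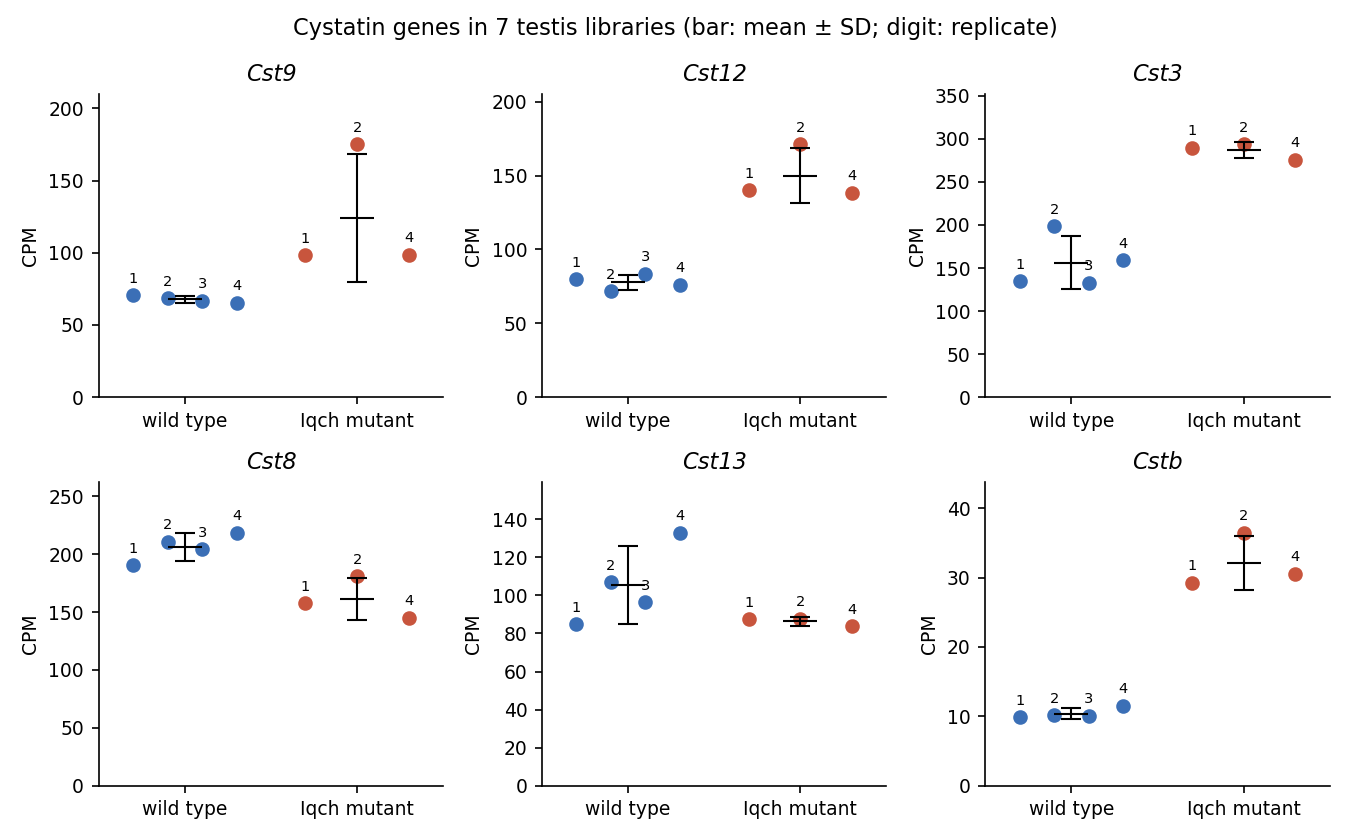
CPM of the 6 cystatin genes in each library (points, with the replicate number above), in wild type (blue, n = 4) and Iqch mutants (red, n = 3); bars are the mean ± SD. The mutant points of Cst9, Cst12, Cst3 and Cstb lie above every wild-type point, those of Cst8 below, and those of Cst13 (83.9 to 87.9) overlap the wild type (84.9 to 133).

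Cst12, a secreted cystatin of Sertoli cells, nearly doubled its share of the reads in mutants. Its CPM were 79.9, 71.6, 83.5 and 76.0 in wild type 1 to 4 and 140, 171.3 and 138.5 in mutants 1, 2 and 4. All mutant values lay above all wild-type values, with mutant 2 highest. The mean was 77.8 ± 5.1 (SD, n = 4) in wild type and 150 ± 18.5 (n = 3) in mutants, a 1.93-fold rise (log2 fold change 0.94, SE 0.07, limma FDR 3.5e-07).

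Cst9, or testatin, rose 1.83-fold, but its mutant libraries were uneven. Wild-type libraries held 70.5, 68.6, 66.6 and 65.4 CPM and mutants 98.1, 175.3 and 98.7 CPM. Mutants 1 and 4 were close to each other, mutant 2 stood well above them, and no mutant value reached down to the wild type. The means were 67.8 ± 2.25 and 124 ± 44.4 CPM, with a log2 fold change of 0.82 (SE 0.15, limma FDR 0.00052). Without mutant 2 the log2 fold change was 0.54 and the gene was still called, at an FDR of 6.7e-06. Mutant 2 was at 1.78 times the mean of mutants 1 and 4 for Cst9 and at 1.23 times for Cst12. Over the 15 Sertoli markers, which include Wt1 and Sox9, that ratio ran from 0.762 to 1.26 (Dhh), with a median of 1.09. What set mutant 2 apart was not tested.

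Whether the Sertoli pair moved with the markers of its cell type was tested on the member's log2(CPM + 0.1) minus the mean of the 15 Sertoli markers, with a two-sided exact permutation test of the genotype labels, which with 4 and 3 libraries can give no p under 0.0286. For Cst12 this difference was 1.15 ± 0.07 in wild type and 1.30 ± 0.11 in mutants, a change of 0.14 (SE 0.07, exact permutation p = 0.114, adjusted p = 0.229 over 6 tests). For Cst9 it was 0.96 ± 0.06 and 0.97 ± 0.42, a change of 0.02 (SE 0.24, exact permutation p = 0.971, adjusted p = 0.971). The error for Cst9 is wide. Its difference was 0.71, 1.46 and 0.75 in mutants 1, 2 and 4, so mutants 1 and 4 were below all wild-type libraries (0.89 to 1.03). Without mutant 2 the Cst9 change was -0.22. The ratio of Cst9 to Cst12 in CPM was 0.798 to 0.958 in wild type and 0.701, 1.02 and 0.713 in mutants.

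**Figure D2:**
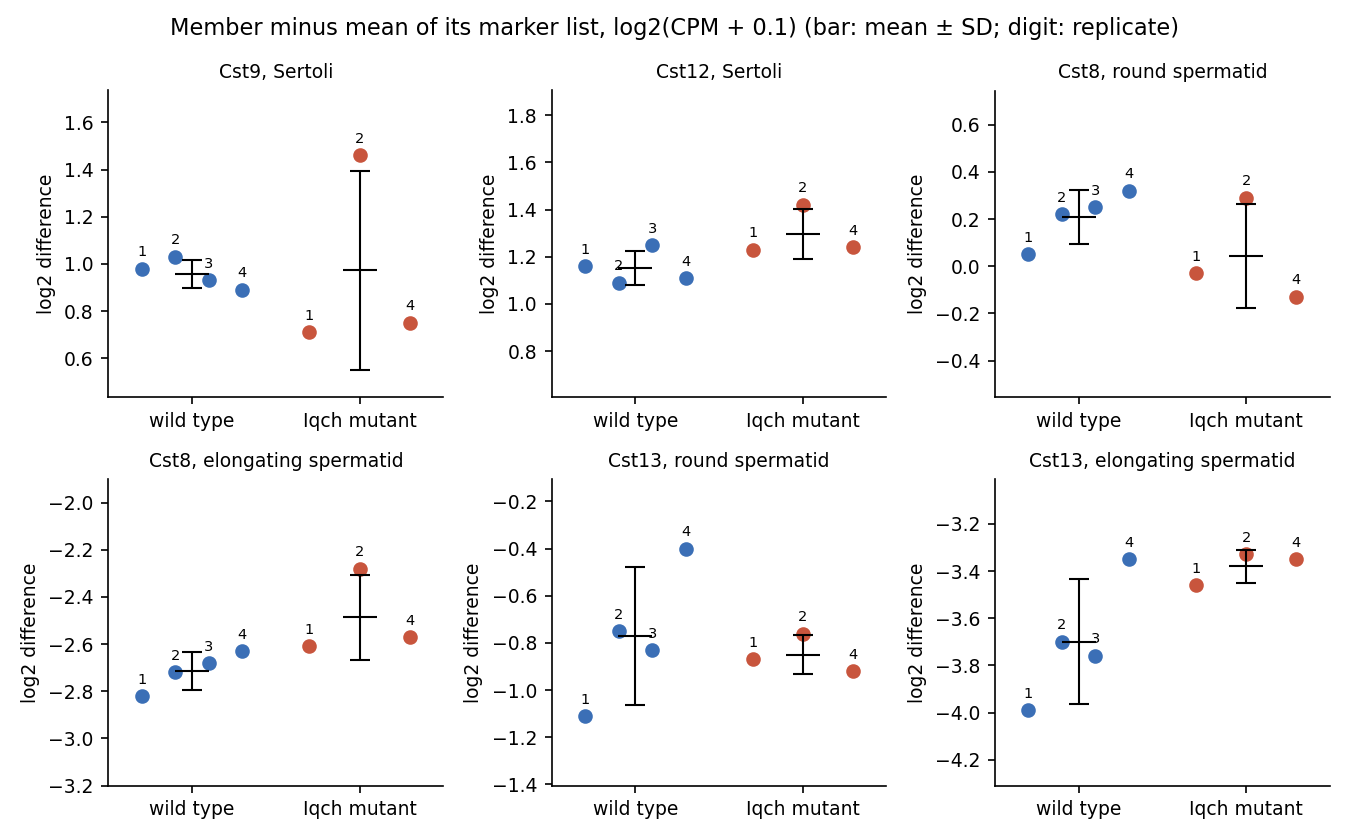
Log2(CPM + 0.1) of a member minus the mean of the marker list named in the panel title, for each library (points, replicate number above) with mean ± SD (bars), wild type in blue (n = 4) and Iqch mutants in red (n = 3). The Cst12 change against Sertoli markers is 0.14 and that of Cst9 0.02, where mutant 2 (1.46) lies far from mutants 1 and 4 (0.71 and 0.75).

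Cst8, known from spermatids, the acrosome and the lumen of the epididymis, was the member that fell. Wild-type libraries had 190.4, 210.6, 204.2 and 218.6 CPM and mutants 157.4, 181.1 and 144.9. The lowest wild-type value was above the highest mutant value, so the groups did not overlap. The mean went from 206 ± 11.9 to 161 ± 18.4 CPM, a ratio of 0.782 (log2 fold change -0.36, SE 0.07, limma FDR 0.00062).

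Cst13, a testis cystatin of germ cells in the same gene cluster, was not called. Its CPM were 84.9, 107, 96.4 and 133 in wild type and 87.4, 87.9 and 83.9 in mutants. The wild-type libraries spread widely and wild type 1 lay among the mutants. The mean went from 105 ± 20.5 to 86.4 ± 2.2 CPM, with a log2 fold change of -0.27 (SE 0.11, limma FDR 0.0518). It passed the threshold under size factors (log2 fold change -0.40, FDR 0.00657) and without wild type 1 (-0.36, FDR 0.00565).

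Compared with the round spermatid markers, Cst8 changed by -0.17 (SE 0.14, exact permutation p = 0.229, adjusted p = 0.343) and Cst13 by -0.08 (SE 0.15, p = 0.686, adjusted p = 0.823). Compared with the elongating spermatid markers, which fell further, Cst8 was higher by 0.23 (SE 0.11) in mutants with no overlap between groups. Its p was the smallest the exact permutation test allows (0.0286), but the adjusted p was 0.171. Over 6 tests, a result at that floor cannot reach a low adjusted p unless other tests lie near the floor. The adjusted p therefore decides nothing here. For Cst13 the change against the elongating spermatid markers was 0.32 (SE 0.14, exact permutation p = 0.114, adjusted p = 0.229).

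Cst3, cystatin C, the widely expressed secreted inhibitor that Sertoli cells are among the sources of, rose 1.83-fold. Its CPM were 134.9, 198.5, 132.7 and 158.8 in wild type and 289.8, 293.9 and 276 in mutants. The mutants were close together and above all wild-type libraries, among which wild type 2 was highest. The means were 156 ± 30.5 and 287 ± 9.37 CPM (log2 fold change 0.89, SE 0.11, limma FDR 1.4e-05).

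Cstb, stefin B, which protects the cytosol and nucleus from leaked cathepsins, had the largest change of the 6 members. Wild-type libraries had 9.84, 10.1, 10.1 and 11.5 CPM and mutants 29.2, 36.5 and 30.5. The groups were far apart compared with their spread: the mean rose 3.09-fold, from 10.4 ± 0.767 to 32.1 ± 3.86 CPM (log2 fold change 1.61, SE 0.09, limma FDR 2e-08). Macrophage and Leydig cell markers rose in the same libraries. All 9 macrophage markers were called higher (median log2 fold change 1.57) and 8 of 9 Leydig markers were (median 1.65), beside 36.3% of all tested genes. The macrophage markers summed to 77.2 to 85.1 CPM in wild type and 206 to 239 in mutants. For the Leydig markers the sums were 1168 to 1389 CPM and 4838 to 4977. Their part in the rise of Cst3 and Cstb was not tested.

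Levels between genes were compared per kb of exon, counting every annotated exon base of a gene once. This length exceeds that of the canonical transcript, by differing amounts. It is 876 bases against 644 for Cst12 and 1808 against 925 for Cst3. The order between genes depends on the length taken, and only this one was used. In wild type, Cst8 was highest (148 ± 8.56 CPM per kb), followed by Cst12 (88.8 ± 5.82), Cst3 (86.4 ± 16.9), Cst13 (75.8 ± 14.8), Cst9 (63.9 ± 2.12) and Cstb (9.07 ± 0.669). The ranges over libraries of Cst12 and Cst3, of Cst3 and Cst13, and of Cst13 and Cst9 overlapped, whereas those of Cst8 and Cst12 and of Cst9 and Cstb did not. In mutants the order became Cst12 (171 ± 21.1), Cst3 (158 ± 5.18), Cst9 (117 ± 41.9), Cst8 (116 ± 13.2), Cst13 (62.2 ± 1.58) and Cstb (28 ± 3.37). The first 3 neighbouring pairs overlapped there, while Cst8 and Cst13, and Cst13 and Cstb, did not. The ratio of Cst12 to Cst8 in CPM, which no scaling of a library can change, was 0.42, 0.34, 0.409 and 0.348 in wild type and 0.889, 0.946 and 0.956 in mutants.

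**Figure D3:**
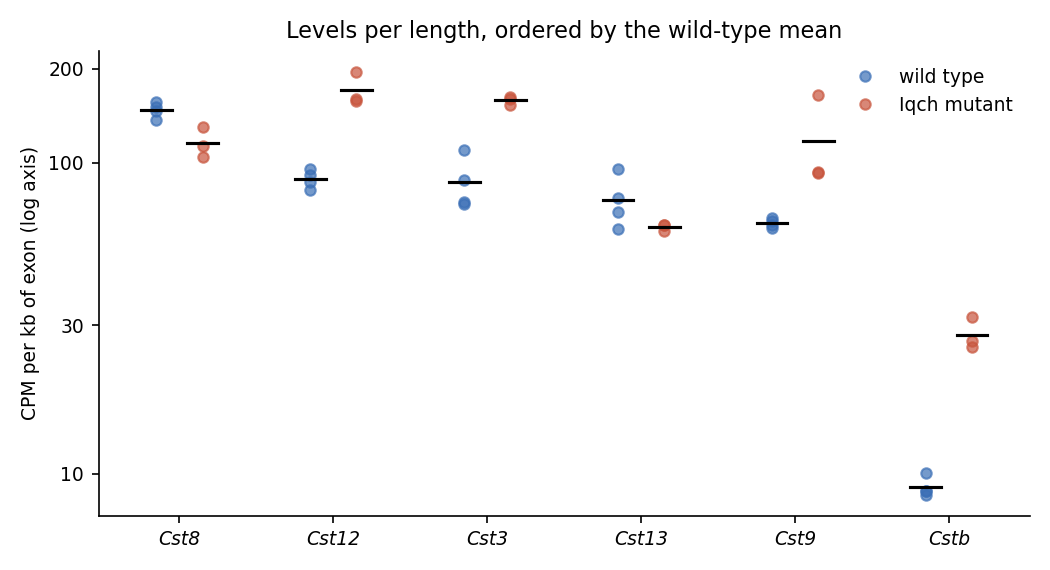
Level of the 6 members in CPM per kb of exon on a log axis, for each library (points) with the mean (black line), wild type in blue (n = 4) and Iqch mutants in red (n = 3), ordered by the wild-type mean. By the length of all annotated exons, Cst8 leads in wild type (148) and Cst12 in mutants (171), and Cstb is the lowest in both (9.07 and 28). The order depends on the length taken.

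The cystatin cluster did not move as a block. From Cstl1 to Cst3 it spans 145 kb of chromosome 2 (148573336 to 148717887) and holds 9 annotated protein-coding genes, all cystatins, of which 8 were tested. Cstdc1, Cst12, Cst9 and Cst3 were called higher, Cstl1 and Cst8 lower, and Cst13 and Cstdc2 not called. Genes that went opposite ways are direct neighbours: 4722 bp separate Cst12, which rose, from Cst8, which fell. By the outer bounds of the annotated genes, Cst13 begins 1252 bp after Cst8 and ends 4706 bp before Cst9. The 250 bases before its canonical start end at 148662000, well inside those bounds. Over the wider window that takes in Cst7 and 500000 bp on each side, 14 of 24 tested genes were called, 10 higher and 4 lower. That window includes the cystatins, and over all tested genes 50.4% were called, 36.3% higher and 14.2% lower. Outside the cystatins, the called genes of the window with more than a 2-fold change were Zfp120 and Acss1. Zfp120, a zinc finger gene, was at a log2 fold change of 1.11 (FDR 0.00028). Acss1, a mitochondrial acetyl-CoA synthetase, was at 1.14 (FDR 4.4e-07).

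**Figure D4:**
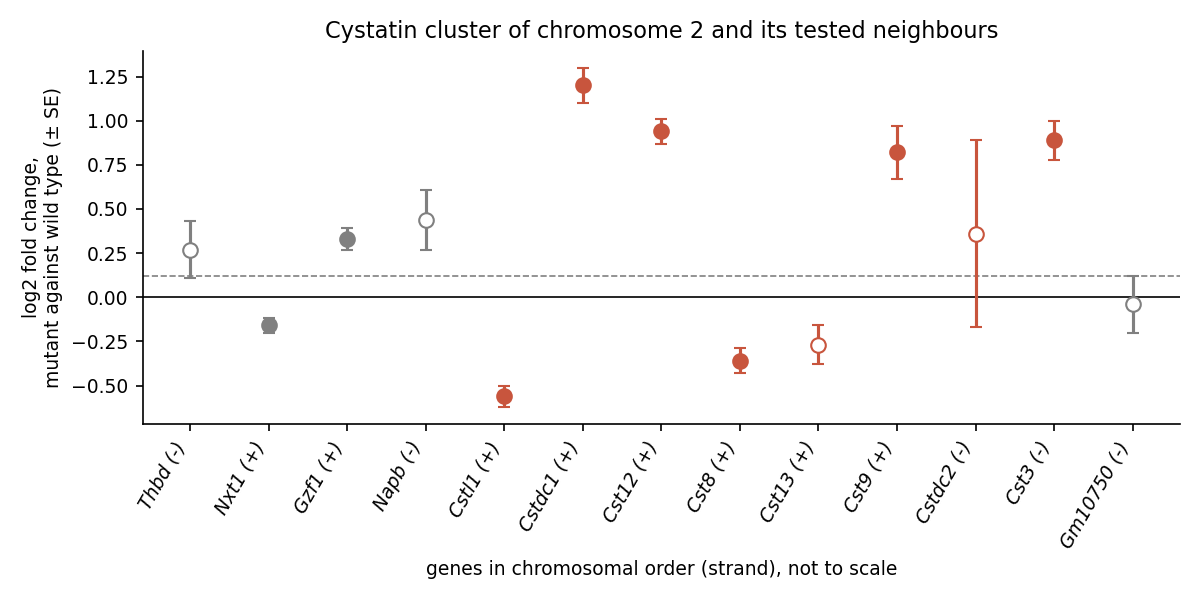
Log2 fold change (± SE) of mutant against wild type for the 8 tested cystatin genes of the chromosome 2 cluster (red) and 5 tested neighbours (grey), in chromosomal order with the strand in brackets; filled points were called, the dashed line is the median of all genes. Genes called in opposite directions are interleaved: Cst12 is at 0.94, the next gene Cst8 at -0.36 and Cst9 at 0.82.

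Of 26 other type 1 and type 2 cystatin genes listed, 4 were in the table. Of these, 3 were called, 2 higher and 1 lower, beside 50.4% of all tested genes. Cstdc1, a cystatin-domain gene beside Cst12, was at 5.66 ± 0.214 CPM in wild type and 13.2 ± 1.88 in mutants (log2 fold change 1.20, SE 0.10, FDR 7.9e-07). Cstl1 fell from 95.8 ± 7 to 64.7 ± 3.85 CPM (-0.56, SE 0.06, FDR 6.7e-06). It overlaps in part with Napb on the opposite strand, and reads in the shared part cannot be separated without a stranded count. Napb was at 3.37 ± 0.575 CPM in wild type and 4.59 ± 0.813 in mutants and was not called. Cstdc3, on chromosome 16, is annotated as a transcribed unprocessed pseudogene and overlaps Gm61342 on the same strand, so its reads are uncertain. It was low, at 2.05 ± 0.297 and 3.18 ± 0.198 CPM (0.62, SE 0.16, FDR 0.0041), and was not called with size factors (0.49, FDR 0.0156). Cstdc2 was the most uneven gene of the family, with 3.11, 26.9, 5.93 and 15.1 CPM in wild type and 13.5, 14.6 and 8.88 in mutants (0.36, SE 0.53, FDR 0.571), and its wild-type libraries span those of the mutants. It overlaps Gm75607 on the opposite strand.

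Among proteins with a cystatin fold but other roles, 3 of 8 listed were in the table. Fetub, fetuin B, which keeps the egg coat penetrable by inhibiting ovastacin, went from 1.16 ± 0.799 to 24.3 ± 2.32 CPM (log2 fold change 4.44, SE 0.31, FDR 1.1e-07). Rarres1 rose from 8.5 ± 0.646 to 18.2 ± 1.71 CPM (1.09, SE 0.09, FDR 6.5e-07). Lxn, latexin, a carboxypeptidase inhibitor, had 9.7 ± 1.96 and 9.38 ± 0.705 CPM (-0.03, SE 0.14, FDR 0.868).

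The lysosomal cysteine proteases, the known targets of cystatins, were higher in mutants. Of 11 listed cysteine cathepsins and legumain, 10 were in the table and all 10 were called higher in mutants, with size factors too, against 36.3% of all genes. Their log2 fold changes ran from 0.90 to 2.12, with a median of 1.31, and their summed level was 479 to 520 CPM in wild type and 1110 to 1257 in mutants. Ctsl, made by Sertoli cells and also one of the Sertoli markers, went from 318 ± 9.07 to 673 ± 35.7 CPM (log2 fold change 1.08). Ctsb rose from 72.9 ± 6.37 to 233 ± 18.8 CPM (log2 fold change 1.68) and Lgmn, legumain, from 43.2 ± 3.81 to 107 ± 8.37 (1.31). Ctss, known from macrophages and other antigen-presenting cells, had the largest log2 fold change, 2.12, with 3.51 ± 0.383 and 15.5 ± 0.533 CPM. Ctsc, Ctsh, Ctsz, Ctso, Ctsf and Ctsk, the last known from osteoclasts, were at 1.93, 1.71, 1.31, 1.18, 0.99 and 0.90. The macrophage and Sertoli markers given above rose in the same libraries, and their part in this was not tested.

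**Figure D5:**
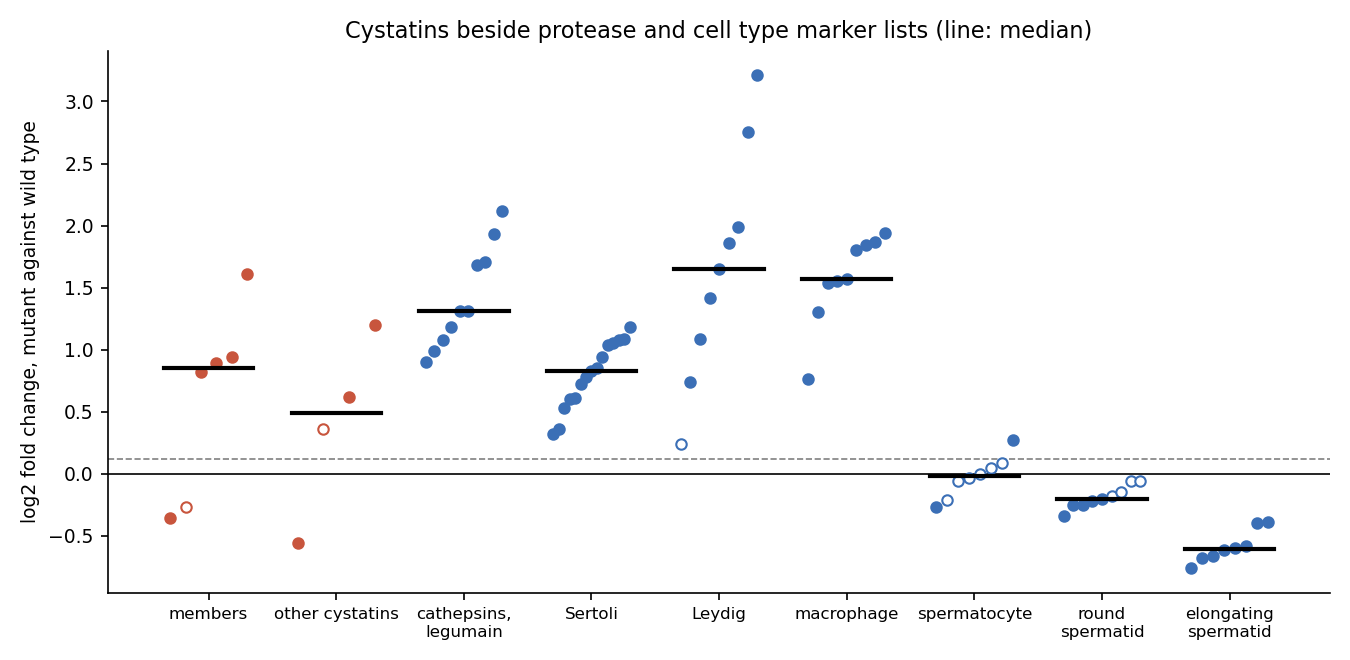
Log2 fold change of mutant against wild type for each gene (points, filled where called) of the cystatin members, other cystatin genes, cysteine cathepsins with legumain and 6 cell type marker lists; the black line is the list's median and the dashed line the median of all genes. The cathepsin points all lie above 0 (0.90 to 2.12), while cystatin members lie from -0.36 to 1.61.

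Other protease groups moved in both directions. Proprotein convertases, the family that includes the reported targets of Cst8, had 8 of 9 listed genes in the table. Of these, 4 were called higher and 2 lower, beside 36.3% and 14.2% of all tested genes (3 and 4 convertases with size factors). Pcsk1, a prohormone convertase, fell from 2.42 ± 0.344 CPM in wild type to 0.0575, 0.0936 and 0.0614 CPM in mutants 1, 2 and 4 (log2 fold change -3.88, SE 0.25, FDR 5.4e-08). If the step between values is 1 read, which the files do not state, these mutant values are 2, 3 and 2 reads, and the ratio to wild type is 0.029 with a 95% interval of 0.0116 to 0.0605 that covers counting error only. Furin rose (log2 fold change 1.14) and Pcsk6 fell (-1.02). Of the calpain system, which cleaves cytosolic proteins and which calpastatin inhibits, 8 of 9 were in the table. Here 4 were called higher and 1 lower, beside the same 36.3% and 14.2% of all tested genes (3 and 2 calpain genes with size factors). Among those called, the largest changes were in Capn1, Capn2 and Capn7, at 1.37, 0.64 and 0.36, and the gene that fell was Cast, calpastatin itself, at -0.26, a gene singled out after its value was seen.

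Few markers of other tissues in which cystatins are known were among the genes of the table. Of 14 epididymis and efferent duct markers, 2 were in the table, Rnase10 (log2 fold change 0.90) and Ros1 (-1.16), summing to 5.36 to 6.82 CPM in wild type and 4.52 to 6.67 in mutants. Of 8 neutrophil markers only Mpo was in the table (1.05 to 2.72 CPM in wild type, 3.25 to 3.77 in mutants), and of 7 keratinocyte markers only Krt10 (3.05 to 4.19 and 3.48 to 4.62 CPM); neither gene was called. Peritubular myoid markers were called higher in 1 and lower in 1 of 5, with size factors too. Endothelial markers were called higher in 1 of 5 (1 higher and 1 lower with size factors). Spermatogonial markers were called higher in 4 of 7 (1 with size factors). Spermatocyte markers were called higher in 1 and lower in 1 of 8 (0 higher and 3 lower with size factors). Of all tested genes, 36.3% were called higher and 14.2% lower.

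The genes whose profiles were closest to each called member were ranked by the root mean square difference of log2(CPM + 0.1), each gene centred on its own wild-type mean, over all 7 libraries. For Cst12 they were Pip5k1b (0.048), Bnip3 (0.049) and Gprasp1 (0.054), and for Cst8 Tmem269 (0.033), Msr1 (0.047) and Acyp2 (0.051). Cst3 was closest to Cuedc1 (0.073), Trim8 (0.074) and Tcn2 (0.086), and Cstb to Aldh1l1 (0.059) and Thap3 (0.081). For Cst9 the closest gene was further away than for the other 4, with Sms at 0.110, Fgf11 at 0.119 and Sms-ps at 0.125. These genes do not stand apart from many others: within 2 times the smallest difference lay 95 genes for Cst12, 14 for Cst8, 43 for Cst3, 40 for Cstb and 217 for Cst9.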

How the data were processed

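Per the submitters' processing notes and the study's methods, the authors used Trimmomatic for trimming, Subread for mapping to GRCm39 and featureCounts for the gene counts. A gene stayed in their table if 2 or more samples of either genotype reached 75 reads. The deposited values are CPM, summing to the same total in each library, with no factor between samples. The strand setting and annotation release are not given in the sources used here. Calls by the authors rested on edgeR together with DESeq2, and mutant 3 is not analysed here.

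Linear models were fitted with limma 3.58.1 (R 4.3.3; lmFit, then eBayes with trend) to log2(CPM + 0.1). A gene was tested if 2 or more libraries of one genotype reached 2.2 CPM. The fit took in the 4 wild-type and 3 mutant libraries, with genotype as the only term. This left out 1 gene, and fold changes of low genes are understated on this scale. On simulated libraries with 2-fold changes in 200 genes (16922 genes tested), 198 of the 198 changed genes tested were called, with 4 unchanged genes. The simulation gave every gene the same dispersion and changed far fewer genes than were called here. It therefore does not show how calls fare for uneven genes such as Cst9 or Cst13. Symbols and coordinates came from GENCODE M39, which held 17045 of the genes (99.5%). Sequences were read from GRCm39. Replicate numbers did not pair the samples.

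The genes named are all members and other listed cystatin-superfamily genes in the table, all cathepsins, the 3 largest called changes of each other protease list, cluster genes called with more than a 2-fold change, the 3 closest profiles per called member, Iqch, and the 3 most abundant Sertoli, round and elongating spermatid markers. Of the genes this rule names, 1 is not reported here. Members and lists were chosen with earlier results of these data known. Python 3.11.15, NumPy 2.4.6, pandas 2.3.3 and matplotlib 3.10.9 were also used.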

Additional observations from a re-analysis of the deposited data

Results flagged for a closer look

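Fetub, fetuin B, was at 2.36 CPM in wild type 2, whereas the other wild-type libraries held 0.718 to 0.852 CPM. The gap to the nearest library was 0.918 of the group's range, above Dixon's critical value of 0.829 for 4 samples. It was 1 of 24 groups checked in this way, and chance flags about 1 in 20. The critical value is for 4 libraries, so mutant groups of 3, such as the uneven one of Cst9, were not checked with it. For Fetub the mutants were far above wild type 2, and leaving out each library in turn gave log2 fold changes of 4.29 to 4.81.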

How the results depend on the processing

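The results were recomputed with 1 or 0.01 as pseudocount, without the minimum or with 5 CPM, with size factors, sample weights, the replicate block and each library left out in turn, 14 settings in all. The planned edgeR and DESeq2 alternatives were not run, since the deposited values are CPM. Members called numbered 5 to 6 when a library was left out, the other cystatin genes and cystatin-fold genes, counted jointly, 4 to 5 of 7, cathepsins and legumain 10, and all genes 7237 to 8503. The numbers of the replicates did not pair the samples (correlations of the deviations 0.0261, 0.0094 and -0.0977); with the replicate block 5 members, 4 of those 7 genes, 10 cathepsins and legumain, and 7722 genes in all were called. Size factors gave 8921 calls, 4626 higher and 4295 lower, against 6212 and 2428. Cst3, Cst8, Cst9, Cst12 and Cstb kept direction and call under all 14 settings. Cstdc3 lost its call under the replicate block (0.64, FDR 0.0146), size factors and without wild type 1 or 2 or mutant 1 or 2 (0.55 to 0.60). Directions turned for Cstdc2 without wild type 1 (-0.16; range -0.16 to 0.87), for Lxn without wild type 2 (0.09) or mutant 4 (0.03; range -0.15 to 0.09), for Cst9 against Sertoli markers without wild type 4 (-0.01) or mutant 2 (-0.22; range -0.22 to 0.15), and for Cst13 against round spermatid markers without wild type 4 (0.05; range -0.19 to 0.05). The cause was not tested.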

Other observations

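Cst3 and Cstdc2 are neighbours on the minus strand, and within each genotype library 2 was highest for both and wild types 1 and 3 were the lowest pair for both. Cst3 was at 198.5 CPM and Cstdc2 at 26.9 CPM in wild type 2, against 134.9 and 3.11 CPM in wild type 1 and 132.7 and 5.93 CPM in wild type 3. These values were picked after they were seen, and no test was made of them. Pcsk4, the convertase known from spermatids and likewise singled out after its values were seen, was at 209 ± 10.4 CPM in wild type (n = 4), compared with 201 ± 11.5 in mutants (n = 3), and was called only with size factors (log2 fold change -0.05, limma FDR 0.371, and -0.19, FDR 0.00929).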
